A study of Homo sapiens with 23 samples.

Results

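The perilipins PLIN1 to PLIN5, the CIDE proteins CIDEA, CIDEB and CIDEC, and the small droplet proteins HILPDA and FITM2 were followed across Caco-2 and HepG2 cells with and without free fatty acids (FFAs). These 10 genes were found by their symbols, and each symbol had a single entry in all 23 expression tables, which list 60564 genes. Of the 10 genes, 6 had a group mean of at least 1 TPM (a transcript level scaled for transcript length and to a common library total) in Caco-2 cells and 8 did so in HepG2 cells. PLIN1 stayed under that mean in every group, and CIDEA was listed at 0 in all 23 libraries.

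A lipid droplet is a store of triglyceride and cholesteryl ester wrapped in a phospholipid monolayer, and the proteins on that monolayer set how fast the store is built, merged and emptied. Perilipins coat the droplet and control the access of lipases, CIDE proteins gather at the contact between droplets and move lipid from one to the other, HILPDA inhibits the lipase ATGL, and FITM2 acts in the endoplasmic reticulum where droplets bud. PLIN2 and PLIN3 are found in most tissues, PLIN1, PLIN4, CIDEA and CIDEC are best known from fat tissue, PLIN5 from tissues that burn fat, and CIDEB from the liver and the gut, where it also takes part in lipoprotein assembly.

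Caco-2 is a line from a human colorectal tumour used as a gut epithelium, and HepG2 is a line from a human liver tumour used as a hepatocyte. Both were kept on a microfluidic chip with a chamber for each line, either alone (mono-culture) or with the chambers connected (co-culture), and were treated for 1 day with 1 mM of palmitic and oleic acid in total, or left without FFAs (control). Every group held 3 libraries, except that co-cultured Caco-2 control cells had 2 (replicates 1 and 2), giving 11 Caco-2 and 12 HepG2 libraries. The labels describe medium with serum during treatment whereas the methods of the study describe serum-free medium with albumin, so the medium behind these values is not settled.

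The libraries and their lines were checked with marker genes. The summed hepatocyte markers reached 70719 to 106292 TPM in HepG2 cells and 13165 to 22319 TPM in Caco-2 cells, and all 10 markers were above 1 TPM in every library of both lines. The summed enterocyte markers reached 876 to 1177 TPM in Caco-2 cells and 155 to 245 TPM in HepG2 cells. The adipocyte markers summed to at most 0.44 TPM in any library. The extraction label names primary myoblasts, and 6 myoblast markers summed to 0.20 to 1.26 TPM in Caco-2 and 7.74 to 41.4 TPM in HepG2 libraries. MYOD1 was listed at 0 in all 23 libraries, whereas 2 of the 6 (ACTA1 and CKM) were above 1 TPM in every HepG2 library, and the 3 that could be tested were all higher in HepG2 cells (limma). No pair of libraries held identical values, and 19259 to 23689 genes were above 0 TPM per library. Read depth is unknown, since TPM hold no counts. Line and chamber cannot be told apart, and in bulk RNA fewer cells of a kind and less RNA per cell cannot be told apart either. The methods state at least a pair of independent experiments, and nothing ties a library to one of them, so p-values measure the spread between these libraries.

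Promoters are shown for PLIN2 and PLIN3, the most abundant genes of the set, and for CIDEB. The last passed a test between cultures in the fits that took no account of replicate numbers. Each runs from 250 bases before to 50 bases after a start site of RefSeq (GRCh38.p14, minus strand for these genes). Capitals mark every match, on either strand, to ACGTG (the core bound by hypoxia-inducible factors), to CCAAT (the CCAAT box), to TATAAA (the TATA box) and to GGGCGG (the GC box). PLIN2 lies at chr9:19127443-19127742, PLIN3 at chr19:4867618-4867917, and the 2 starts of CIDEB at chr14:24307928-24308227 and chr14:24311386-24311685.
PLIN2: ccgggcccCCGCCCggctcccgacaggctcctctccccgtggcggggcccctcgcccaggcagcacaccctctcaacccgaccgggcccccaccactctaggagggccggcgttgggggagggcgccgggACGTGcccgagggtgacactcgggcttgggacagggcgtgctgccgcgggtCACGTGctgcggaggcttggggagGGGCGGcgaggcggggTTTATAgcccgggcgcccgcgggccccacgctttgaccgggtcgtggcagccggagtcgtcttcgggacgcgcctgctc
PLIN3: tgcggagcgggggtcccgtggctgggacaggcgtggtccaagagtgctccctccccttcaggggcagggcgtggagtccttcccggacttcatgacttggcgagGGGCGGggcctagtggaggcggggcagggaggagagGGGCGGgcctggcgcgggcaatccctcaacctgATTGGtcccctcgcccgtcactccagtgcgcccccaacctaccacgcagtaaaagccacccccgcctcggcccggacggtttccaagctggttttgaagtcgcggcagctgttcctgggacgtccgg
CIDEB start 1: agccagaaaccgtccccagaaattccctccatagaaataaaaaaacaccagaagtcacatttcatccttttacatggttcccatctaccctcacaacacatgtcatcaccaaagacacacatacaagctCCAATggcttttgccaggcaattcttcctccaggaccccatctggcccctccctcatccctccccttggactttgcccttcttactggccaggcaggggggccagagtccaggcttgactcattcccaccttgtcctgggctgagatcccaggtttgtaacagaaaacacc
CIDEB start 2: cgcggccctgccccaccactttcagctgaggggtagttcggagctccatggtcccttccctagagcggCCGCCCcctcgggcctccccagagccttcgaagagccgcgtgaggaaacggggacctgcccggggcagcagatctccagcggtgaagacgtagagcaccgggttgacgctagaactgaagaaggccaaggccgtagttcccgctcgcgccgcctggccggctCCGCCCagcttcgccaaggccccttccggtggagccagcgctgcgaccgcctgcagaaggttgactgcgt

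Of the 10 genes, 9 had a promoter in the table, with 11 start sites between them. HILPDA had none there, so its promoter was not searched for any of these letters. The PLIN2 window was the only one of the 11 with ACGTG, at base -120 and in the overlapping pair at -69 and -68 that reads CACGTG, and it was also the only one with TATAAA, read on the opposite strand at -29. ACGTG was present in 21.4% of all 35116 promoters and TATAAA in 11.5%. GGGCGG was found in 6 of the 11 windows and in 45% of all promoters, and CCAAT in 4 of the 11 and in 34.6%. The nuclear receptor element AGGTCA, found in 13.8% of all promoters, and the direct repeat DR1, which holds it at both ends with a base between and was found in 0.0228%, had no match in the 11 windows. The 2 CIDEB starts differed in base content. Start 1 held 1 CpG dinucleotide and 51% GC, and start 2 held 28 CpG and 68.3% GC, against a median of 14 CpG and 58.7% GC over all promoters. PLIN2 held 36 CpG and PLIN3 held 24. These matches are a description of the letters only.

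Among the 10 genes, the order of levels differed between the lines. In HepG2 cells PLIN2 came first with a mean of 437 TPM and ranked 333 among all genes, followed by PLIN3 at 210.1 TPM, CIDEB at 83.6 TPM, CIDEC at 28.1 TPM, FITM2 at 25.2 TPM and HILPDA at 11.0 TPM. In Caco-2 cells PLIN2 and PLIN3 had means of 181 and 177 TPM, with overlapping libraries, and CIDEC at 79.2 TPM came before CIDEB at 44.7 TPM. FITM2 at 12.7 TPM and HILPDA at 12.5 TPM were last among the expressed genes of Caco-2 cells, and their libraries overlapped as well. In HepG2 cells the ranges of CIDEC and FITM2 libraries also overlapped. PLIN4 and PLIN5 were under 0.5 TPM in every Caco-2 library.

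**Figure D1:**
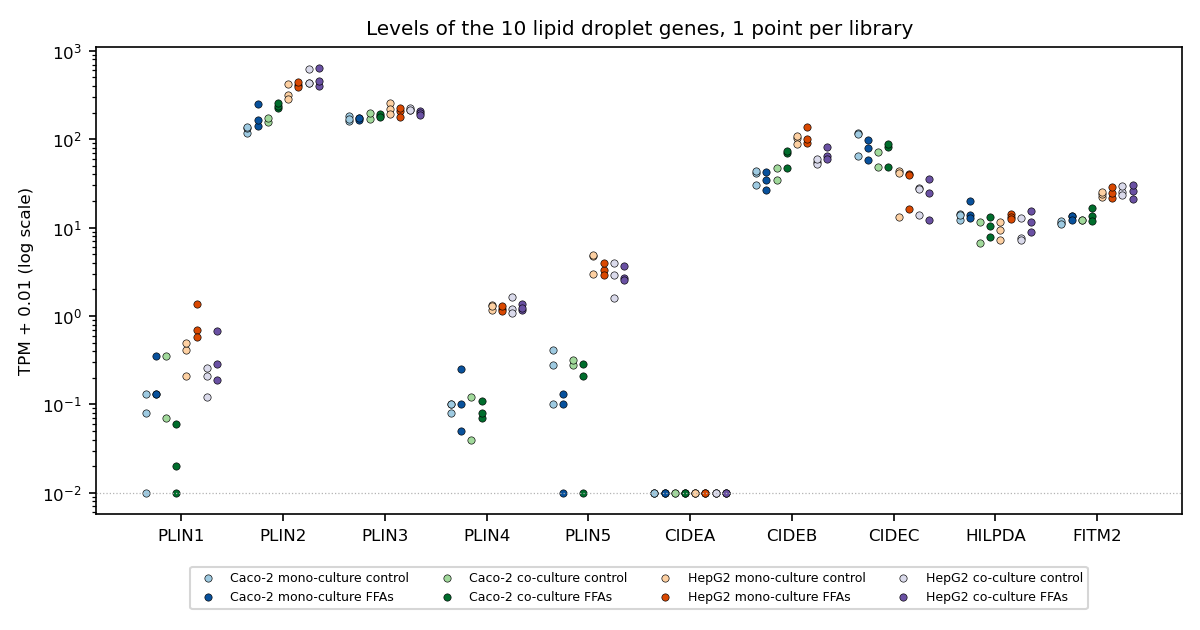
The plot of levels shows TPM on a log scale, with a small offset so that 0 can be drawn, for each of the 10 genes, with 1 point per library and a colour per group. PLIN2 and PLIN3 lie above 100 TPM in all 23 libraries, CIDEA lies at 0, and PLIN4 and PLIN5 lie higher in HepG2 than in Caco-2 libraries.

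All further folds are limma log2 fold changes on log2(TPM + 1), which understates the change of genes near 1 TPM, with Benjamini-Hochberg adjustment over all genes tested. Between the lines, averaged over the 4 conditions, 7 of the 8 tested genes passed an adjusted p of 0.05, against 79% of all 16495 genes tested, so this share was close to that of genes in general. The 4 perilipins that could be tested were higher in HepG2 cells, and PLIN1, which was not tested, had overlapping libraries at 0 to 0.34 TPM in Caco-2 and 0.11 to 1.36 TPM in HepG2 cells. The largest of these folds was that of PLIN5, which coats droplets next to mitochondria, at 1.84 (SE 0.11). PLIN2, the ubiquitous coat, was higher by 1.29 (SE 0.10). PLIN4 was higher by 1.05 (SE 0.07), with 1.08 to 1.63 TPM in HepG2 and 0.03 to 0.24 TPM in Caco-2 libraries. For PLIN5 the ranges were 1.58 to 4.87 TPM and 0 to 0.40 TPM, with 2 Caco-2 libraries at 0. AC011498.4 overlaps 6798 bases of PLIN5 on the same strand, at 0.06 to 1.57 TPM in HepG2 and 0 to 0.03 TPM in Caco-2 libraries. Reads could have been divided between them, which was not tested. With a pseudocount of 0.1 the folds of PLIN4 and PLIN5 were 2.88 and 3.67. PLIN3 differed least among the perilipins, by 0.24 (SE 0.05, limma adjusted p = 0.000308).

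The genes of droplet growth differed in both directions. FITM2 was higher in HepG2 cells by 0.93 (SE 0.07), at 21.1 to 30.0 TPM in HepG2 and 10.9 to 16.5 TPM in Caco-2 libraries. How many of all genes separate the lines in this way was not counted. CIDEB was higher in HepG2 cells by 0.90 (SE 0.10). CIDEC, the CIDE protein of large fat droplets, was higher in Caco-2 cells, with a HepG2 minus Caco-2 fold of -1.51 (SE 0.24, limma adjusted p = 8.5e-06). The ratio of CIDEB to CIDEC was 0.333 to 0.977 in Caco-2 and 1.81 to 8.46 in HepG2 libraries. CIDEC thus exceeded CIDEB in every Caco-2 library, and CIDEB exceeded CIDEC in every HepG2 library. HILPDA gave -0.13 (95% interval -0.39 to 0.14, limma adjusted p = 0.37), its direction was positive after the other scalings, and it passed with the mono-cultured control libraries alone (-0.49, limma adjusted p = 0.0425). The median of all genes in this comparison was -0.24, and it was -0.04 with median-of-ratios scaling and 0.02 with quantile normalization. The 7 genes passed with both of these scalings as well.

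FFAs were first compared with control in mono-cultured Caco-2 cells. PLIN2 was at 119, 135 and 137 TPM in control libraries and at 140.1, 165 and 252 TPM with FFAs. The groups did not overlap, which was also true of 5.08% of genes tested in that direction, and the FFAs library of replicate 3 was far above the others. The fold was 0.47 (SE 0.17, limma adjusted p = 1). FITM2 was at 11.2, 12.0 and 10.9 TPM without and 13.5, 13.6 and 12.3 TPM with FFAs, again without overlap, with a fold of 0.19 (SE 0.13, limma adjusted p = 1). No gene was called in this comparison, and at an unadjusted p under 0.05 there were 393 of 15081 genes (2.61%), with PLIN2 among them as the 1 of these 10 genes.

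In co-cultured Caco-2 cells PLIN2 was at 155 and 175 TPM in control libraries and at 223, 239 and 254 TPM with FFAs. All FFAs libraries were above both controls, as for 8.27% of genes tested. The fold was 0.53 (SE 0.19, limma adjusted p = 1). These controls held no replicate 3, which had the highest PLIN2 in the 3 Caco-2 groups that held it. With the replicate number as a block, the PLIN2 fold was 0.42 (SE 0.14, limma adjusted p = 0.411). The check on replicate numbers did not pair the libraries of this comparison, so the block may not correct for the missing library. The FFAs effect on PLIN2 in co-culture minus that in mono-culture was 0.06, with a 95% interval of -0.50 to 0.63, so a difference in either direction lies within the error. None of the 6 genes tested was called by limma with FFAs in co-culture, where 0.0199% of genes were, and 2 of the 6 had an unadjusted p under 0.05 (2.83% of all genes did). Averaged over both cultures, PLIN2 gave 0.50 (SE 0.13, 95% interval 0.22 to 0.78, limma adjusted p = 0.99), and FITM2 gave 0.19 and HILPDA 0.20.

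**Figure D2:**
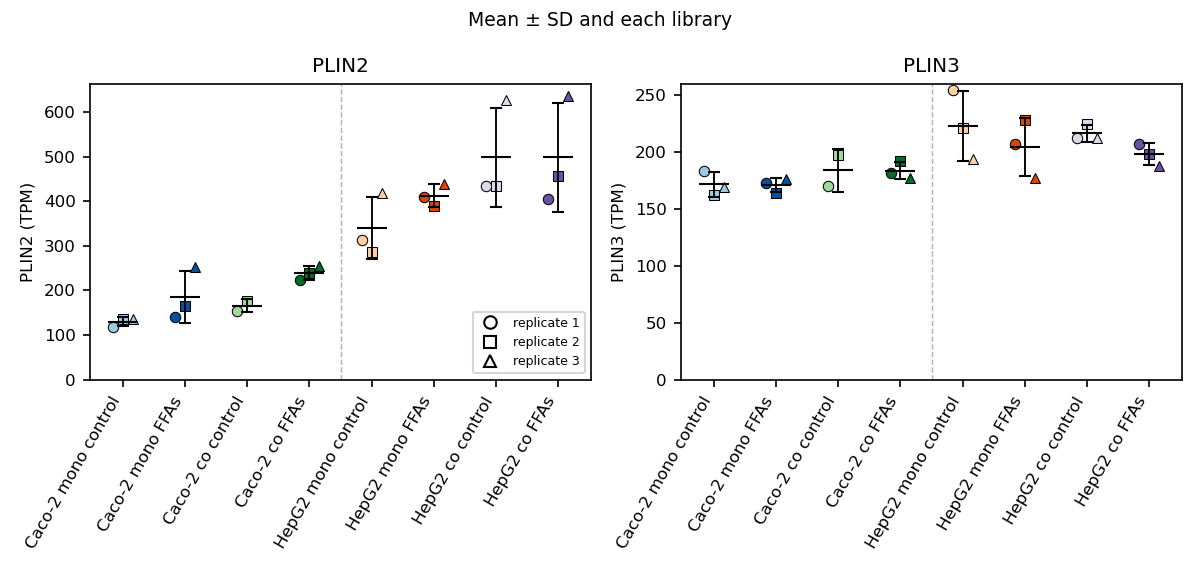
PLIN2 (left) and PLIN3 (right) in TPM per library, by group, with replicate numbers as symbols and lines for the mean ± SD. PLIN2 with FFAs lies above control in both cultures of Caco-2 cells, whereas PLIN3 stays between 162 and 197 TPM in all 11 Caco-2 libraries.

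PLIN3, which moves between the cytosol and new droplets, stood at 171 ± 10.9 TPM (SD, n = 3) in mono-cultured Caco-2 control cells and at 171 ± 6.28 TPM (SD, n = 3) with FFAs. The ratio of PLIN2 to PLIN3 therefore moved with PLIN2. It was 0.646 to 0.832 in mono-cultured control libraries, 0.811 to 1.43 with FFAs, 0.890 to 0.909 in co-cultured control libraries and 1.23 to 1.43 with FFAs. PLIN2 was the less abundant of the pair in every Caco-2 control library and the more abundant in every co-cultured FFAs library. In HepG2 cells the ratio was 1.23 to 3.39, and PLIN2 made up 54.6% to 76.8% of the summed perilipin TPM, against 39.2% to 58.9% in Caco-2 cells.

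In HepG2 cells PLIN2 was already high without FFAs. Mono-cultured controls had 313, 287 and 419 TPM, and FFAs libraries had 410.2, 388 and 439 TPM. The groups overlapped, because the control of replicate 3 exceeded FFAs libraries of the other numbers, and the fold was 0.30 (SE 0.20, limma adjusted p = 1). FFAs libraries were higher in 3 of 3 same-numbered pairs, which the check on replicate numbers paired. With the block the PLIN2 fold was 0.30 (SE 0.10, limma adjusted p = 0.85, and unadjusted p = 0.0133). In co-culture the control mean of PLIN2 was 499 ± 111 TPM (SD, n = 3) and the FFAs mean was 498 ± 122 TPM (SD, n = 3). The averaged FFAs effect on PLIN2 in HepG2 minus that in Caco-2 cells was -0.35 (95% interval -0.78 to 0.07, limma adjusted p = 1). For that difference no gene of the 8 tested was called by limma or had an unadjusted p under 0.05, where 0.0182% of all genes were called and 2.99% had such a p.

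HILPDA, whose protein is induced by fatty acids and by low oxygen, was at 7.31, 9.38 and 11.5 TPM in mono-cultured HepG2 controls and at 14.1, 13.2 and 12.6 TPM with FFAs. The groups did not overlap, as for 3.1% of genes tested. The fold was 0.48 (SE 0.24, limma adjusted p = 1). In co-culture it was at 7.63, 12.8 and 7.29 TPM without and 15.6, 11.5 and 8.85 TPM with FFAs, and the groups overlapped. Averaged over both cultures of HepG2 cells, HILPDA gave 0.42 (SE 0.17, 95% interval 0.05 to 0.79, limma adjusted p = 1). No gene at all passed the adjusted test for FFAs in this line. Before adjustment, limma gave a p under 0.05 to 0 of the 8 genes in mono-culture without the block (2.24% of all genes), 0 in co-culture (1.84%) and 1, HILPDA, for the average (3.49%). AC010655.4 overlaps 2570 bases of HILPDA on the same strand, at 0 to 5.20 TPM in HepG2 and 0 to 0.31 TPM in Caco-2 libraries. Reads could have been divided between these genes, which was not tested.

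In co-cultured HepG2 cells 2 other genes separated FFAs from control libraries. CIDEB was higher in all 3 FFAs libraries, at 64.1, 59.97 and 80.7 TPM against 55.5, 52.1 and 59.2 TPM, as for 3.02% of genes tested, with a fold of 0.28 (SE 0.16, limma adjusted p = 1). PLIN3 was lower, at 207, 198 and 188 TPM against 212, 224 and 212 TPM, as for 2.4% of genes tested. Neither was called.

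PLIN1 was under the filter and was not tested with limma. Its HepG2 libraries held 0.40, 0.49 and 0.20 TPM in mono-cultured controls and 1.36, 0.69 and 0.57 TPM with FFAs. In co-culture PLIN1 was at 0.25, 0.11 and 0.20 TPM without and 0.66, 0.18 and 0.28 TPM with FFAs. PEX11A shares 1664 bases of the same strand with PLIN1 and was at 5.62 to 19.1 TPM in HepG2 cells, so reads could have been divided between them.

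In the fits without a replicate block, CIDEB was the only gene of the set that passed a test between cultures. With the block described below, PLIN2 passed as well in HepG2 cells. In mono-cultured HepG2 cells it was at 102, 109 and 89.2 TPM without FFAs and at 91.3, 101 and 138 TPM with FFAs. In co-cultured HepG2 cells it was at 55.5, 52.1 and 59.2 TPM without FFAs and at 64.1, 59.97 and 80.7 TPM with FFAs. All 6 co-cultured libraries were below all 6 mono-cultured ones, as for 0.758% of genes tested. Averaged over both treatments, CIDEB fell by 0.76 on the log2 scale in co-culture (SE 0.11, 95% interval of the fold -1.003 to -0.51, limma adjusted p = 0.0478). It was 1 of 8 of these genes called, where 8 of 14255 genes (0.0561%) were called in all and 0.0281% were called in each direction. The call is near the threshold. It was lost with median-of-ratios scaling (limma adjusted p = 0.0571), quantile normalization (0.0581), no filter (0.127) and no trend (0.0871), and when any library other than replicate 3 of co-cultured HepG2 cells with FFAs was left out.

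By the rule used here, replicate numbers paired the HepG2 libraries in this comparison, since every same-numbered pair correlated above 0.1 in its deviations. With FFAs these pairs reached 0.31 to 0.60. Without FFAs the pair of replicate 3 reached 0.46, and those of replicates 1 and 2 only 0.11 and 0.16. There, co-cultured replicate 1 correlated at 0.19 with mono-cultured replicate 2, so numbers 1 and 2 were not told apart. With the replicate number as a block, the CIDEB fold was -0.76 (limma adjusted p = 0.0102), PLIN2 was higher in co-culture by 0.40 (limma adjusted p = 0.0206), and 492 genes were called, 2 of the 8 among them. Without the block, PLIN2 gave 0.40 (SE 0.14, 95% interval 0.10 to 0.70, limma adjusted p = 0.28). Co-cultured controls had 434, 435 and 627 TPM of PLIN2 and did not overlap the mono-cultured controls, as for 7.25% of genes tested, while with FFAs the cultures overlapped. Within single treatments no gene was called without the block, and with it 6 genes were called without FFAs and 1 with FFAs, none of them from this set. CIDEB had a co-culture fold of -0.84 (SE 0.16, limma adjusted p = 0.425; 0.133 with the block) without FFAs and of -0.67 (SE 0.16, limma adjusted p = 0.821; 0.134 with the block) with FFAs. At an unadjusted p under 0.05, limma counted 2 of 8 genes without FFAs (7.53% of all genes), CIDEB and PLIN2, and 1 with FFAs (5.63%), CIDEB.

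CIDEB lies on the minus strand at chr14:24305187-24311430 (GRCh38), and 3938 bases of it are covered by NOP9 and 5697 by LTB4R2, both on the opposite strand. The library kit keeps no strand, so reads in these stretches cannot be told apart. NOP9 had group means of 10.8 and 11.6 TPM in mono-cultured and 11.0 and 11.2 TPM in co-cultured HepG2 cells, and LTB4R2 was at 0.57 to 2.21 TPM. The part of shared reads in the CIDEB result was not tested. The summed hepatocyte markers were 87911 to 106292 TPM in mono-cultured and 70719 to 91114 TPM in co-cultured HepG2 cells. Averaged over treatments, all 10 were fitted lower in co-culture, with a median fold of -0.24 against -0.02 over all genes. Limma called 0 of them, and 5 of 10 were lower at an unadjusted p under 0.05, where 7.04% of all genes were. The part of these markers in the CIDEB result was not tested.

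In Caco-2 cells CIDEB did not pass the test between cultures. Without FFAs the libraries were at 41.2, 43.4 and 30.1 TPM in mono-culture and 34.8 and 47.3 TPM in co-culture, which overlapped, and the fold was 0.10 (SE 0.24, limma adjusted p = 0.955). With FFAs they were at 26.8, 42.4 and 34.8 TPM in mono-culture and 69.9, 73.5 and 47.2 TPM in co-culture, with all 3 co-cultured libraries above the 3 mono-cultured ones, as for 4.69% of genes tested. The co-culture fold with FFAs was 0.85 (SE 0.22, limma adjusted p = 0.737) and the averaged fold was 0.48 (SE 0.16, 95% interval 0.12 to 0.83, limma adjusted p = 0.37). FFAs gave a CIDEB fold of -0.14 in mono-culture and of 0.61 in co-culture (SE 0.24, limma adjusted p = 1), and the difference between these was 0.75 (SE 0.32, limma adjusted p = 1). None of the genes was called for co-culture in Caco-2 cells. At an unadjusted p under 0.05, limma counted 0 of the 6 genes without FFAs (5.43% of all genes, with 0.0199% called), 3 with FFAs (6.09%) and 3 for the average (10.5%).

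**Figure D3:**
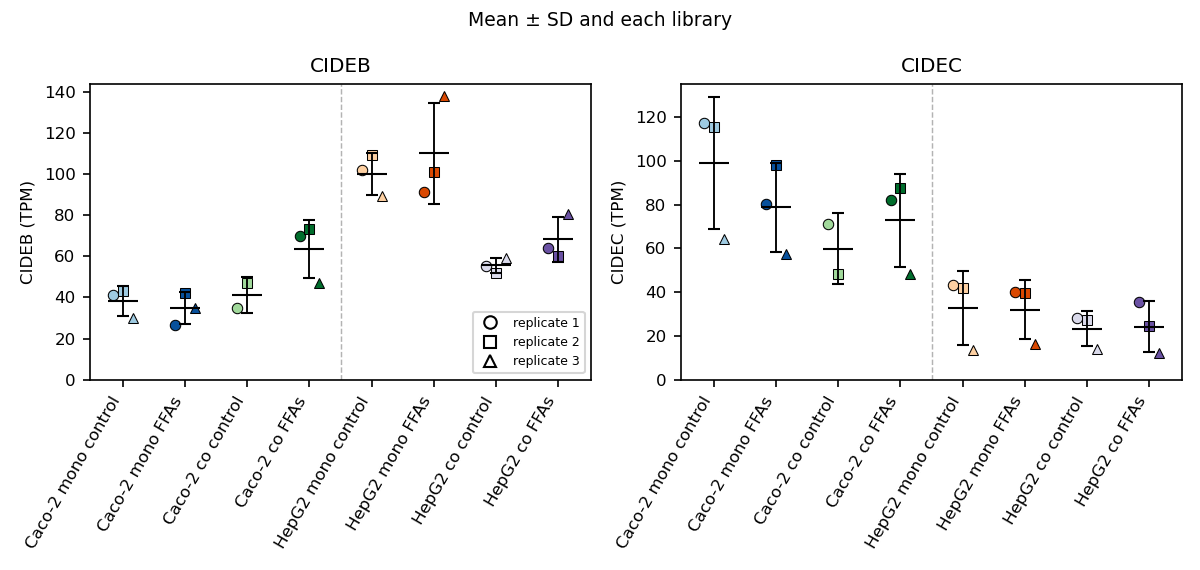
CIDEB (left) and CIDEC (right) in TPM per library, by group, with replicate numbers as symbols and lines for the mean ± SD. The 6 co-cultured HepG2 libraries of CIDEB lie below the 6 mono-cultured ones, and CIDEC of replicate 3 is the lowest of its group wherever there is a replicate 3.

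The co-culture effects of both lines were then set against each other in one fit. This test was chosen only once the values were known. For CIDEB, the effect in HepG2 minus that in Caco-2 cells was -1.23 (SE 0.21, 95% interval -1.67 to -0.80, limma adjusted p = 0.0138). CIDEB was the 1 gene of 8 that passed, where 0.533% of 16495 genes did. It passed under all 7 other settings (limma adjusted p = 0.00322 to 0.0235) and without any of the 23 libraries in turn (0.00573 to 0.0368). PLIN2 gave 0.02 (95% interval -0.40 to 0.45, limma adjusted p = 0.97) and HILPDA 0.43 (limma adjusted p = 0.455).

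Transferrin (TF), a hepatocyte secretory gene, was at 5680 to 9359 TPM in HepG2 cells and at 5.11 to 9.45 TPM in mono-cultured Caco-2 cells. It was at 42.8 and 4.17 TPM in co-cultured Caco-2 controls and at 132.9, 10.2 and 6.06 TPM in those with FFAs, so replicate 1 of each stood above the rest. After subtraction of the mono-culture mean, the highest of these corresponds to 1.69% of the mean HepG2 level, and that share of HepG2 RNA would hold 1.15 TPM of CIDEB, against 69.9 TPM measured in that library, and 8.43 TPM of PLIN2, against 223 TPM. Without that library the CIDEB co-culture fold with FFAs in Caco-2 cells was 0.77, and the difference between the lines was -1.19 (limma adjusted p = 0.0165). The estimate rests on TF alone, 1 of the 10 hepatocyte markers. In co-cultured Caco-2 cells, 4 of these were fitted higher and 6 lower without FFAs, and 9 higher and 1 lower with FFAs. No such estimate was made for Caco-2 RNA in HepG2 libraries.

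Other genes of the set in co-cultured Caco-2 cells included HILPDA, at 14.1, 12.2 and 13.9 TPM in mono-cultured and 11.7 and 6.62 TPM in co-cultured controls. These did not overlap, as for 7.99% of genes tested. With FFAs they were 19.9, 13.96 and 13.0 TPM in mono-culture and 10.5, 13.3 and 7.90 TPM in co-culture. The averaged HILPDA fold was -0.54 (SE 0.17, 95% interval -0.92 to -0.16, limma adjusted p = 0.346). Controls of PLIN2 and FITM2 were higher in co-culture without overlap, as for 15.1% of genes tested, and PLIN3 was so with FFAs, as for the 4.69% given above. PLIN2 gave 0.37 for the same contrast (SE 0.13, limma adjusted p = 0.376). CIDEC gave -0.41 (SE 0.22, limma adjusted p = 0.547) in Caco-2 and -0.39 (SE 0.36) in HepG2 cells, and PLIN5 gave -0.31 (SE 0.18, limma adjusted p = 0.514) in HepG2 cells. Co-cultured Caco-2 controls held no replicate 3, the number at which CIDEC was lowest. With the replicate number as a block, CIDEC gave -0.53 in Caco-2 cells (SE 0.11, limma adjusted p = 0.0723). By the rule used here, however, replicate numbers did not pair Caco-2 libraries. Replicate 2 of these controls correlated at 0.18 to 0.28 in its deviations with replicate 3 of the other Caco-2 groups. The block may therefore not correct for the missing library.

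**Figure D4:**
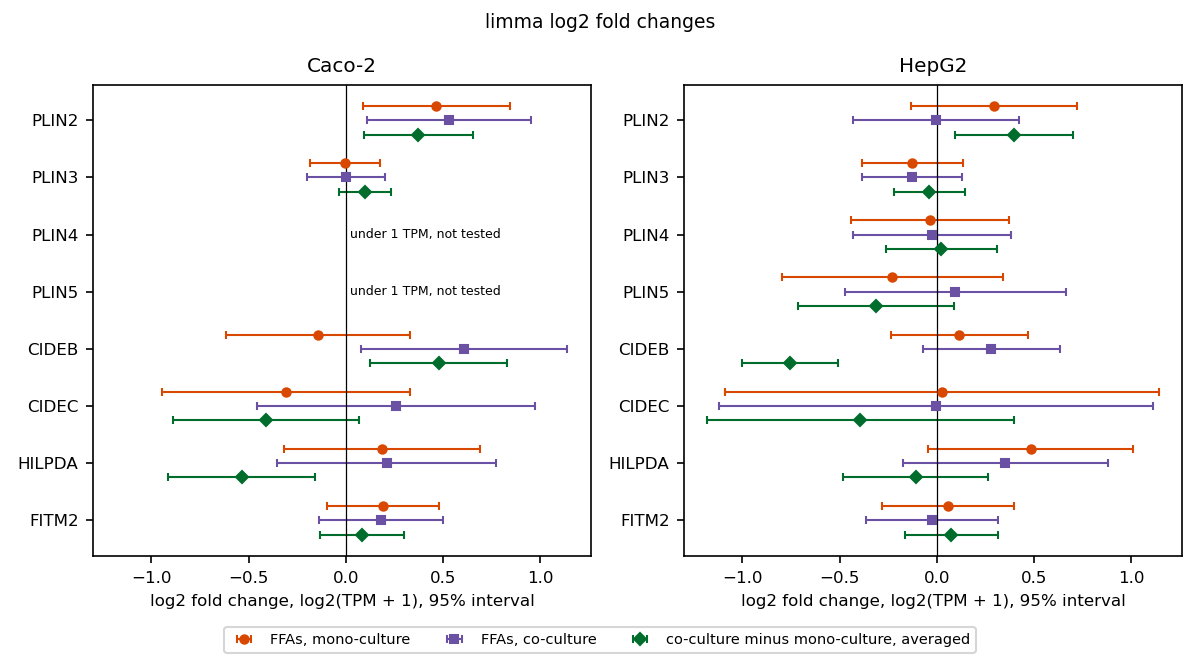
Points are limma log2 fold changes on log2(TPM + 1) with 95% intervals for FFAs in mono-culture, FFAs in co-culture and co-culture averaged over treatments, in Caco-2 (left) and HepG2 (right) cells. The CIDEB interval for co-culture in HepG2 cells runs from -1.003 to -0.51 and that in Caco-2 cells from 0.12 to 0.83. Intervals are per gene without adjustment for the number of genes, and the Caco-2 effect did not pass the adjusted test.

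CIDEC spread widely among libraries of the same group. It was at 43.4, 41.9 and 13.3 TPM in mono-cultured HepG2 controls and at 40.1, 39.5 and 16.3 TPM with FFAs. In co-culture it was at 28.3, 27.3 and 14.01 TPM without and at 35.5, 24.7 and 12.2 TPM with FFAs. Replicate 3 was the lowest library of CIDEC in 4 of 4 HepG2 groups, at 0.312 to 0.504 of the mean of replicates 1 and 2, and in 3 of 3 Caco-2 groups, at 0.552 to 0.645 of that mean. The same libraries were highest for PLIN2 in 4 of 4 HepG2 groups (1.10 to 1.48 times the mean of the other two) and in 3 of 3 Caco-2 groups. PLIN3 and PLIN5 were lowest in replicate 3 in 4 of 4 HepG2 groups. FITM2 was highest there in 4 of 4 HepG2 groups and lowest in 3 of 3 Caco-2 groups. The share of all genes that were lowest or highest in replicate 3 in every group was not counted. Replicate 3 libraries of the HepG2 groups correlated with each other at 0.46 to 0.60 in their deviations from the group means. Whether these shifts are special to the droplet genes was therefore not tested. Over the 12 HepG2 libraries, which share culture conditions and numbers, the correlation of log2(TPM + 1) with PLIN2 was -0.90 for PLIN5, -0.79 for CIDEC and 0.70 for FITM2, as a description. What the number marks is not given in the sources used here. Replicate 3 also had the most genes above 0 TPM in every group that held it. In HepG2 cells these libraries had 21588 to 22416 such genes, and the other libraries had 19259 to 20873. Among Caco-2 libraries, replicate 2 of the co-cultured controls had 23689. Whether the number of genes above 0 TPM is tied to these shifts was not tested.

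**Figure D5:**
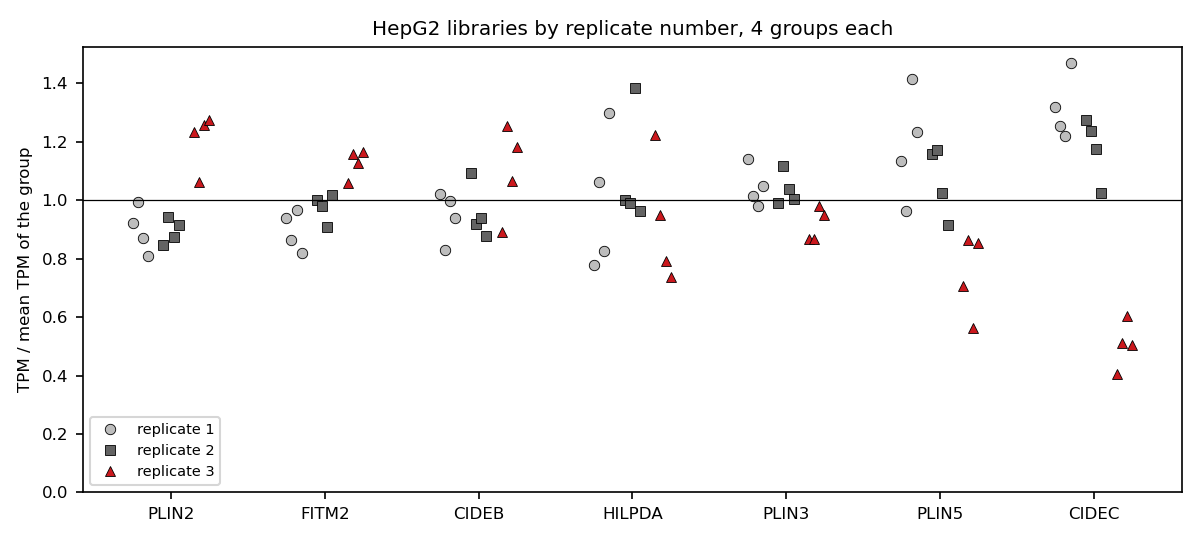
TPM of 7 genes in each HepG2 library divided by the mean of its group, with a symbol and shade per replicate number. Replicate 3 lies above 1 for PLIN2 and FITM2 and below 1 for PLIN3, PLIN5 and CIDEC in all 4 groups. The share of all genes that do so was not counted.

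By the selection rule of the study, a one-way analysis of variance (p below 0.05 before adjustment) plus a 1.2-fold or greater difference between any pair of groups, 1 of 9 genes (PLIN2) was selected in Caco-2 cells, against 3.08% of 31100 genes. In HepG2 cells 2 of 9 genes (CIDEB and PLIN1) were selected, against 3.56% of 29942 genes. After Benjamini-Hochberg adjustment none of the 9 was selected in either line, where 0.0289% of all genes were in Caco-2 and 0.00334% in HepG2 cells.

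The rest of the pathway was described from lists of droplet machinery, regulators, fatty acid response and hypoxia response, in which no gene was called in any comparison within a line. With FFAs averaged over both cultures of Caco-2 cells, PDK4 and CPT1A, a kinase and a transferase that favour fatty acid oxidation, gave folds of 1.02 and 0.60 (limma adjusted p = 0.99 for both). SREBF1, a factor driving fatty acid synthesis, gave -0.52 there (limma adjusted p = 0.705) and -0.42 in HepG2 cells. In HepG2 cells ANGPTL4, an inhibitor of lipoprotein lipase, gave 0.47 with FFAs. Of the droplet machinery there, DGAT1, which makes triglyceride, gave 0.22 and the long-chain acyl-CoA synthetase ACSL3 -0.35. The limma adjusted p was 0.9999 for each of these. For co-culture in HepG2 cells, DGAT1 gave -0.39 (limma adjusted p = 0.112), FABP1 -0.66 and ACOT1 -0.67. The median fold of the fatty acid response list in that contrast was -0.62, where the median of all genes was -0.02, with 0 of 6 genes called by limma and 4 of 6 lower at an unadjusted p under 0.05, where 7.04% of all genes were. For co-culture in Caco-2 cells, 2 hypoxia response genes were the glucose transporter SLC2A1 at -0.91 (limma adjusted p = 0.141) and ADM at 0.72 (limma adjusted p = 0.345). Of the 9 tested from that list, 7 were fitted higher and 2 lower, with a median of 0.18 against 0.03 over all genes. At an unadjusted p under 0.05, limma counted 3 higher and 1 lower, where 6.07% and 4.4% of all genes were.

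Between the lines, 6 genes of the droplet machinery were higher and 14 lower in HepG2 cells of 21 tested, where 29.2% of all genes were higher and 49.8% lower. The ATGL inhibitor G0S2 was lower by a fold of -7.41, the lipase LIPE by -2.91 and METTL7B by -2.34, and FITM1 was higher by 1.73. Of 11 regulators, 3 were higher and 4 lower. PPARGC1A, a coactivator of oxidative genes, was higher by 4.25. Of 7 fatty acid response genes, 3 were higher and 3 lower, with FABP1 at 2.21 and PDK4 at -1.09. Of 10 hypoxia response genes, 4 were higher and 5 lower, with BNIP3 at 2.17 and ADM at -2.21.

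The genes whose levels were most like PLIN2 over the libraries were ENPP1 (r = 0.946), SLC38A4 (r = 0.927) and TPD52L1 (r = 0.914) among 15081 genes in the 11 Caco-2 libraries. In the 12 HepG2 libraries, among 14255 genes, they were AP1S2 (r = 0.945), CCND1 (r = 0.933) and METTL8 (r = 0.932). Without the 2 libraries farthest from the median the r values were 0.880 to 0.914 in Caco-2 and 0.879 to 0.953 in HepG2 cells. These correlations on log2(TPM + 1) describe shared libraries and carry no test.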

How the data were processed

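Polyadenylated RNA of 23 libraries was amplified with SMART-Seq v4, a kit that keeps no strand. The authors deposited gene levels in TPM for each library. According to the submitters' processing notes and the methods of the study, reads of rRNA, tRNA and the mitochondrial genome were removed with Bowtie2 2.1.0, STAR 2.7.1a aligned the remaining reads to GRCh38, and RSEM 1.3.0 gave the TPM. Groups and replicate numbers came from the sample labels. Depth is unknown, so no counting error is given.

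Values were analysed as log2(TPM + 1) with limma 3.58.1 (eBayes with a trend) in R 4.3.3, in one fit per line or of both lines, keeping genes whose mean reached 1 TPM in any group. This left 15081 genes in Caco-2 cells, 14255 in HepG2 cells and 16495 in both. Tests were two-sided, with Benjamini-Hochberg adjustment at 0.05. The 95% intervals are per gene and carry no such adjustment. The scripts were tested on simulated data. Alternatives were other scalings, pseudocounts and filters, no trend, a replicate block and leaving out each library. The comparison of co-culture effects between lines and the transferrin estimate were chosen after seeing the data. The genes and lists were chosen with earlier results of these data known. All 10 genes are named, and from each list at most 4 that passed or, where none passed, those with the smallest p or the highest level, plus overlapping genes and the 3 most like PLIN2; 1 gene of the lists is not reported here.

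Replicate numbers were taken to pair libraries where every same-numbered pair of a comparison correlated above 0.1 in its deviations from the group means. This held for co-culture against mono-culture in HepG2 cells (6 of 6 pairs, 0.11 to 0.60) and for FFAs in mono-cultured HepG2 cells (3 of 3), and not for FFAs in co-cultured HepG2 cells (1 of 3) or any Caco-2 comparison. Among differently numbered HepG2 pairs, 7 of 36 were above 0.1 as well. Positions came from GENCODE v44, in which 60295 of 60564 gene IDs were found, and promoters from RefSeq. Python 3.11.15 (numpy 2.4.6, pandas 2.3.3, matplotlib 3.10.9) was used for summaries and figures.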

Additional observations from a re-analysis of the deposited data

Results flagged for a closer look

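The co-culture effect on CIDEB differed between the 2 lines by a test of the difference itself. The averaged co-culture fold was -0.76 in HepG2 and 0.48 in Caco-2 cells, and the difference was -1.23 (SE 0.21, limma adjusted p = 0.0138). This comparison was chosen after seeing the data, and the Caco-2 effect on its own did not pass the threshold (limma adjusted p = 0.37). Without FFAs the Caco-2 fold was 0.10 with overlapping libraries, and with FFAs it was 0.85.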

How the results depend on the processing

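Over 45 folds and 991 alternatives, 956 kept the direction and the side of the threshold, 15 lost a call, 2 gained one and 18 turned in sign. The turned values were all small. HILPDA between the lines was 0.087 with median-of-ratios scaling and 0.18 with quantile normalization. The difference in the co-culture effect on PLIN2 between the lines was -0.056 with quantile normalization, -0.030 with the replicate block and -0.10 to 0.11 when leaving out 1 library. The difference in the FFAs effect on PLIN2 between cultures of Caco-2 cells was -0.043 with the replicate block and -0.11 to 0.31 when leaving out 1 library, and the CIDEB fold with FFAs in mono-cultured Caco-2 cells was -0.30 to 0.023 over such omissions. The CIDEB co-culture fold without FFAs in Caco-2 cells was -0.012 with the replicate block and -0.11 to 0.32 when leaving out 1 library.

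For co-culture averaged over treatments in HepG2 cells, the number of genes of the set called was 0 with median-of-ratios scaling, quantile normalization, no filter and no trend, and 2 with the replicate block. It was 0 to 1 when leaving out 1 library, where the CIDEB fold was -0.82 to -0.67 (limma adjusted p = 0.0279 to 0.135). By the selection rule of the study, 0 genes of the set remained in Caco-2 and 0 in HepG2 cells after Benjamini-Hochberg adjustment. Among all genes, 9 of 31100 remained in Caco-2 and 1 of 29942 in HepG2 cells. The replicate block gave 4 in Caco-2 cells (FITM2, CIDEB, PLIN2 and CIDEC, among 1374 genes against 957 without it) and 3 in HepG2 cells. In Caco-2 cells the replicate numbers did not pair the libraries by the rule used here. Leaving out 1 library gave 0 to 2 in Caco-2 and 1 to 2 in HepG2 cells. CIDEB stayed selected in HepG2 cells whichever library was left out, whereas PLIN1 was lost in most omissions. In Caco-2 cells PLIN2 was lost in some omissions. Apart from the calls given here and beside the results, the block changed no call of the set. The cause of these changes was not tested.

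Of 80 group levels, 15 moved by more than 1 SD with median-of-ratios scaling, by 0.887 to 1.09 times. Depth per library is unknown, so how far low genes such as PLIN1 and PLIN4 are limited by it could not be measured.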
